A study of Bos taurus with 8 samples.

Results

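NUPR1, DEPP1 and 7 further genes of the response to nutrient shortage and stress were followed in the mammary gland of 8 lactating Holstein Friesian cows. They were FOXO1, FOXO3, DDIT4, SESN1, TXNIP, PDK4 and KLF9, and their probes were taken by gene name from the array, where DEPP1 is written C28H10orf10. They are 9 of the 15181 genes that could be named on the array and had 26 of the 43653 probes that are not controls, and no further probe was found by RefSeq accession. The genes were selected on the yield ratios of these same arrays, in which NUPR1 and DEPP1 were already known to be above 0 for each cow pair, so the yield values below are a description with no test.

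RNA came from gland tissue of 4 high-yield cows (average 11097 kg of milk per lactation) and 4 low-yield cows (average 6956 kg). Both groups were healthy cows of 1 breed, the labels name no treatment and no age, and the yields are group averages. A high-yield and a low-yield cow of equal lactation formed a pair, hybridised together on 2 arrays whose dyes were swapped, and there were 4 such pairs: pairs 1 and 2 were in lactation II, while lactation IV held pairs 3 and 4. The arrays were 2-colour long-oligonucleotide arrays, and a ratio below is the log2 of the high-yield over the low-yield cow, averaged over the 2 arrays of a pair, so that 1 is a doubling.

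NUPR1 is a small chromatin-associated protein whose gene is induced by nutrient starvation and by stress of the endoplasmic reticulum, in large part through the transcription factor ATF4. FOXO1 and FOXO3 are transcription factors that insulin signalling holds out of the nucleus through AKT; when insulin signalling falls they switch on genes such as DEPP1, SESN1, PDK4 and KLF9, depending on the tissue. DDIT4 and SESN1 restrain the growth kinase mTORC1, TXNIP slows glucose uptake and binds thioredoxin, and PDK4 keeps pyruvate out of the citric acid cycle in favour of fatty acid oxidation. In a lactating gland these genes stand at the crossing of nutrient supply and the very high demand of milk synthesis.

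The probes are 60 bases long, and those that read the coding part of 7 of the genes are shown because each fixes which stretch of the messenger RNA a value stands for. They are given 5′ to 3′ in the sense of the transcript, as the array files hold them, with positions on build HGSC Btau_3.1 from the same files. The capitals in the first FOXO3 probe mark the bases that encode the DNA-recognition helix of the forkhead domain.
NUPR1 A_73_P405176, chr25:27896004-27896485, minus strand: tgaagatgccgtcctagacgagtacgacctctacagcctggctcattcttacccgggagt
DEPP1 A_73_P268486, chr28:44791119-44791178, plus strand: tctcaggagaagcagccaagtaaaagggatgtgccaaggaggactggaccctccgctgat
FOXO1 A_73_P077101, chr12:21512928-21512987, plus strand: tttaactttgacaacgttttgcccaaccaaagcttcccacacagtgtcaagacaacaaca
FOXO3 A_73_P313041, chr9:43366470-43462018, minus strand: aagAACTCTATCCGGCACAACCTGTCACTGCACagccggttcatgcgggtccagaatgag
FOXO3 A_73_P081231, chr9:43365170-43365229, minus strand: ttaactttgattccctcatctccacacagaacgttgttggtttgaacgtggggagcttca
PDK4 A_73_P320911, chr4:13146116-13146175, minus strand: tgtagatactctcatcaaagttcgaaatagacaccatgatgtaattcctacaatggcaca
TXNIP A_73_P495663, chr3:23257173-23257231, plus strand: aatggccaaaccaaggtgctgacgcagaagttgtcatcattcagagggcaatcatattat
SESN1 A_73_P420891, chr9:43020972-43021902, plus strand: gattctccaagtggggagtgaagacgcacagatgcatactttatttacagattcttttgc

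The NUPR1 probe covers 482 bases of the genome, the first FOXO3 probe 95549 and the SESN1 probe 931, so these 60-base probes cross from 1 exon into the next and read spliced RNA. The other 18 probes are described by position only. Exon annotation of that build was not used here, and the coding status of the 8 probes rests on knowledge of the proteins; each has at least 1 reading frame without a stop codon.

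Across the 8 arrays, between 22027 and 42482 probes per colour channel were well above background, 0 spots were saturated, and 29867 probes passed a filter that asked for 6 of the 8 channels of the high-yield or of the low-yield cows. Of the 26 probes of the 9 genes 25 passed, 21 of them above background in all 16 channels. The KLF9 probe A_73_P435871 did not pass, with 5 channels of the high-yield and 4 of the low-yield cows, whereas the other KLF9 probe passed with 7 and 6. One cow stands apart: the low-yield cow of pair 1 had a mean log2 intensity over 7 milk protein and milk-secretion genes of 11.85, against 16.66 to 19.42 in the other 7 cows. LALBA, the lactose synthase subunit of milk-secreting cells, was at 9.74 in that cow and at 16.14 or more in the high-yield cows. The mean ratio without pair 1 is therefore also given for the brightest probe of NUPR1, of DEPP1 and of TXNIP. For DDIT4 the sign of the lactation difference without pair 1 is given. The closing section gives ranges with each pair left out for some lactation differences. The counts of the lists and the correlations over the cows include pair 1. Lactation II was hybridised on 1 slide and lactation IV on the other, so lactation and slide cannot be told apart.

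NUPR1 was higher in the high-yield cow of every pair on each of its 3 probes, by 2.71-fold on the probe nearest the 3′ end. On that probe (A_73_P042641, chromosome 25, 27895227 to 27895286) the high-yield cows of pairs 1 to 4 had log2 intensities of 15.94, 15.56, 16.86 and 16.11, and the low-yield cows 14.19, 14.92, 15.35 and 14.26. Every high-yield cow lay above every low-yield cow, the closest being the high-yield cow of pair 2 and the low-yield cow of pair 3. The ratios of pairs 1 to 4 were 1.75, 0.64, 1.51 and 1.85, with a mean of 1.44 ± 0.55 (SD, n = 4 pairs), and 1.33 without pair 1.

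The coding NUPR1 probe printed above, A_73_P405176, stood at 13.09, 13.06, 14.76 and 13.92 in the high-yield cows and at 11.98, 12.38, 13.15 and 12.24 in the low-yield cows. Here the groups overlapped, because the low-yield cow of pair 3 was above the high-yield cows of pairs 1 and 2. Its mean ratio was 1.27 ± 0.47 (SD, n = 4 pairs), a 2.41-fold difference. The probe nearest the 5′ end, A_73_P422291 (chromosome 25, 27896540 to 27896599), gave ratios of 0.79, 0.31, 1.44 and 0.52, a mean of 0.76 ± 0.49 (SD, n = 4 pairs). Pair 2 had the smallest NUPR1 difference on each probe. Over the 8 cow levels the 3 probes correlated with one another at r = 0.77 to 0.95; the 2 cows of a pair share arrays.

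DEPP1, whose FOXO-induced product has been tied to autophagy and to peroxisomes, was likewise above its pair mate in each high-yield animal, on both probes. On A_73_P047781 (chromosome 28, 44791384 to 44791443) the high-yield cows stood at 11.16, 11.04, 13.49 and 11.91 and the low-yield cows at 10.49, 9.74, 11.50 and 10.28. The low-yield cow of pair 3 exceeded the high-yield cows of pairs 1 and 2, so the groups overlapped although each pair differed in the same direction. The ratios were 0.67, 1.30, 1.99 and 1.63, a mean of 1.40 ± 0.56 (SD, n = 4 pairs) or 2.63-fold, and 1.64 without pair 1.

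On the coding DEPP1 probe printed above, A_73_P268486, the high-yield cows stood at 8.74, 8.64, 10.28 and 9.18 and the low-yield cows at 8.20, 8.14, 8.46 and 7.67. The groups did not overlap. The mean ratio was 1.09 ± 0.67 (SD, n = 4 pairs), but it depended on the dye. With the high-yield cow in Cy5 it was 0.49 and with the high-yield cow in Cy3 1.69, and the 2 arrays of pair 3 gave 0.39 and 3.25. The high-yield cow of pair 3 had the highest level of the 8 cows on both DEPP1 and all 3 NUPR1 probes.

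These were the only 5 of the 25 probes that were higher in 4 of 4 pairs (8.21% of all probes tested were), and 0 of the 25 were lower in 4 of 4 pairs (10.3% of all probes). In 2 of the 25 every high-yield cow lay above every low-yield cow (0.877% of all probes), and in 0 below (2.21%); these counts restate the choice of the genes. With limma, 0 of 29867 probes had an adjusted p under 0.05 for yield (0%), and 1926 had an unadjusted p under 0.05 (6.45%). The median ratio of the 25 probes was 0.18, against -0.01 for all probes tested.

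**Figure D1:**
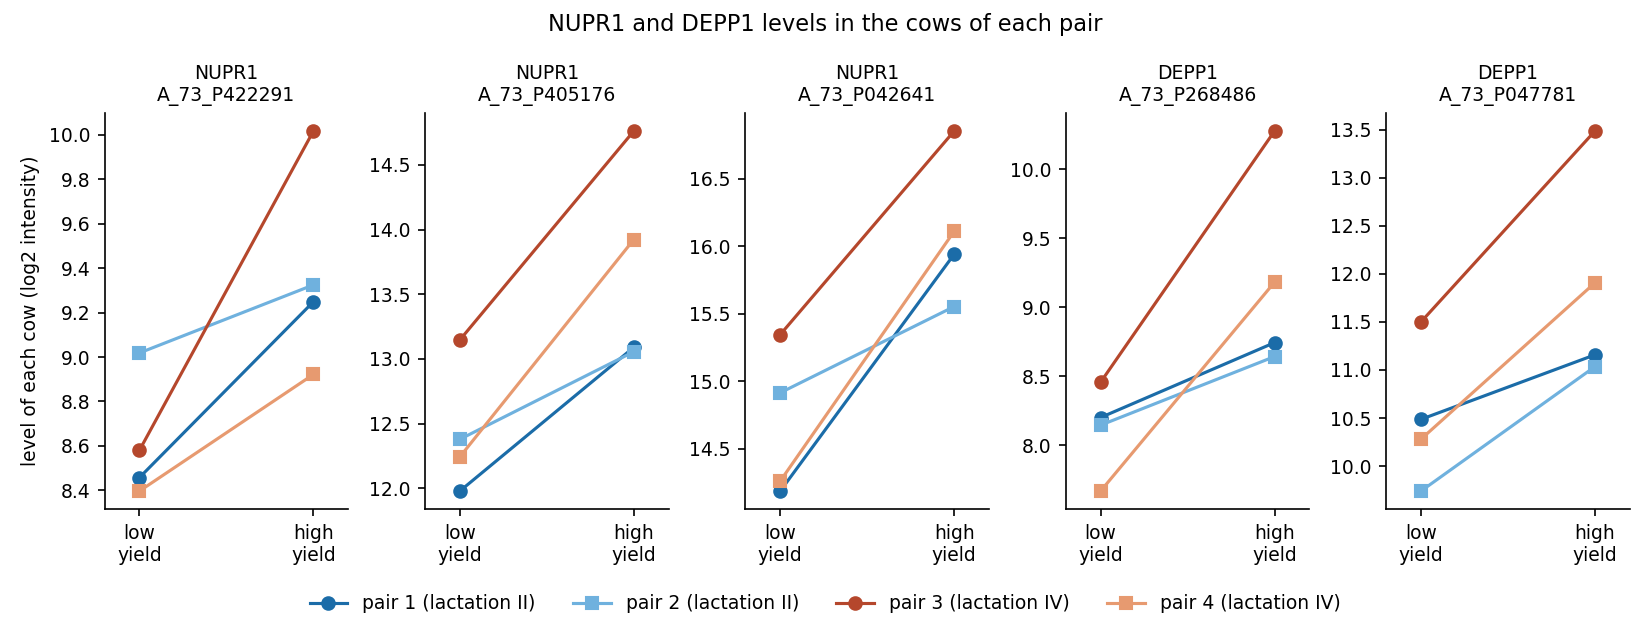
Level of each cow (log2 intensity, vertical axis) on the 3 NUPR1 and 2 DEPP1 probes, with a line joining the low-yield and the high-yield cow of each pair; the scale differs between panels and levels are not to be compared between probes. Every line rises towards the high-yield cow, and pair 3 has the highest high-yield cow in each panel.

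The FOXO factors had no ratio beyond its spread between pairs. FOXO1, on A_73_P077101, stood at 7.25, 7.76, 6.98 and 7.51 in the high-yield and at 7.02, 7.59, 7.09 and 7.34 in the low-yield cows. The groups overlapped along nearly their whole range, and the mean ratio was 0.11 ± 0.15 (SD, n = 4 pairs). The 2 arrays of a pair gave the same sign in only 1 of 4 pairs, with means of -0.15 for the high-yield cow in Cy5 and 0.38 in Cy3, so the difference is smaller than that between dye orientations.

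FOXO3 was read by a probe over the recognition helix and by one further 3′. The first, A_73_P313041, stood at 6.54, 6.78, 6.76 and 6.54 in the high-yield and at 6.42, 6.77, 6.51 and 6.58 in the low-yield cows. Its mean ratio was 0.08 ± 0.13 (SD, n = 4 pairs). The second, A_73_P081231, had ratios of 0.28, -0.25, -0.11 and -0.60, a mean of -0.17 ± 0.37, and correlated with the first at r = 0.41 over the 8 cows. The 2 FOXO3 probes thus had means of opposite sign. With the scanner's processed signals in place of the offset background correction these means were 0.35 and -0.35. These arrays measure RNA and not the location of the FOXO proteins.

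DDIT4, the stress-induced inhibitor of mTORC1 also called REDD1, was higher in the high-yield cow of both lactation II pairs and lower in that of both lactation IV pairs, on both probes. On A_73_102351 (chromosome 28, 27717953 to 27718012) the high-yield cows stood at 13.32, 13.80, 13.20 and 12.27 and the low-yield cows at 11.76, 12.94, 13.56 and 12.86. The groups overlapped. The ratios of 1.56, 0.86, -0.36 and -0.58 averaged 1.21 in lactation II and -0.47 in lactation IV. The difference, IV minus II, was -1.68 ± 0.35 (SE of the limma fit; unadjusted p = 0.0067, adjusted p = 0.641 over all probes), so it did not pass.

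The other DDIT4 probe, A_73_P327121 (chromosome 28, 27717679 to 27717738), had ratios of 1.39, 1.15, -0.33 and -0.80 and a difference of -1.83 ± 0.30 (SE; limma adjusted p = 0.641). The 2 probes start 274 bases apart and correlated at r = 0.98 over the 8 cows. The low-yield cow of pair 1 had the lowest DDIT4 level of the 8 on both; without pair 1 the difference was still below 0 on both probes.

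SESN1 encodes sestrin 1, a p53 and FOXO target that senses amino acids and restrains mTORC1. Its 3′ probe A_73_P036706 (chromosome 9, 43036978 to 43037037) stood at 10.23, 10.54, 10.50 and 9.79 in the high-yield and at 10.22, 10.04, 10.82 and 10.41 in the low-yield cows. Its ratios of 0.02, 0.50, -0.32 and -0.62 had the same order of signs as DDIT4, with a difference of -0.73 ± 0.31 (SE; limma adjusted p = 0.651), but pair 1 was close to 0. The coding probe A_73_P420891 gave -0.18, 0.06, -0.07 and -0.33 and correlated with the 3′ probe at r = -0.11. That probe was well above background in only 5 of 8 channels of the high-yield and 7 of 8 of the low-yield cows, so the 2 probes do not carry the same measurement. Its mean ratio of -0.13 ± 0.16 became -0.42 with the scanner's processed signals.

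PDK4, which phosphorylates and switches off pyruvate dehydrogenase during fasting, repeated the DDIT4 pattern on all 8 probes. On A_73_P347021 (chromosome 4, 13137712 to 13137771) the high-yield cows stood at 13.81, 14.04, 14.12 and 12.37 and the low-yield cows at 11.88, 12.62, 14.35 and 12.62. The low-yield cow of pair 3 had the highest level of the 8 cows, so the yield groups overlapped. The ratios were 1.93, 1.42, -0.23 and -0.25, or 1.67 in lactation II and -0.24 in lactation IV.

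The lactation difference of that probe was -1.92 ± 0.30 (SE of the limma fit; unadjusted p = 0.00218, adjusted p = 0.641). The widest difference was on the probe with the last transcript position, A_73_119171 (chromosome 4, 13136666 to 13136725), with ratios of 2.25, 1.26, -0.92 and -0.61 and a difference of -2.52 ± 0.43 (SE; limma adjusted p = 0.641). The narrowest under this background correction was on the coding probe A_73_P320911 printed above, which stood between 6.18 and 7.17 in the 8 cows and had ratios of 0.04, 0.21, -0.49 and -0.24, a difference of -0.49 ± 0.26. Over the 8 probes the difference lay between -2.52 and -0.49, with unadjusted p between 0.000991 and 0.132 and adjusted p between 0.641 and 0.661.

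The size of the PDK4 difference along the transcript depended on the background correction. The probes that start at bases 561, 1328 and 1949 of the transcript had differences of -0.49, -0.87 and -1.85, and those that start at bases 2636 to 3682 had differences of -1.92 to -2.52. With the scanner's processed signals, which carry no added offset, the first 3 were -1.79, -1.49 and -2.06 and the others -1.94 to -2.60, so the values at bases 561 and 1328 moved most and the gradient was largely gone. The probe at base 561 was well above background in 7 of 8 channels of either yield group. The position of the probe at base 1328, A_73_P088251, is also uncertain: the files place only 25 bases of it on the genome (chromosome 4, 13136603 to 13136627), 63 bases beyond A_73_119171, although the transcript positions of the 2 probes are 2354 bases apart in the opposite order. A_73_P257831 and A_73_P258536 overlap by 54 bases and correlated at r = 0.999, so they are nearly 1 measurement. The median correlation over all 28 pairs of PDK4 probes was 0.917, and the lowest was 0.57.

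**Figure D2:**
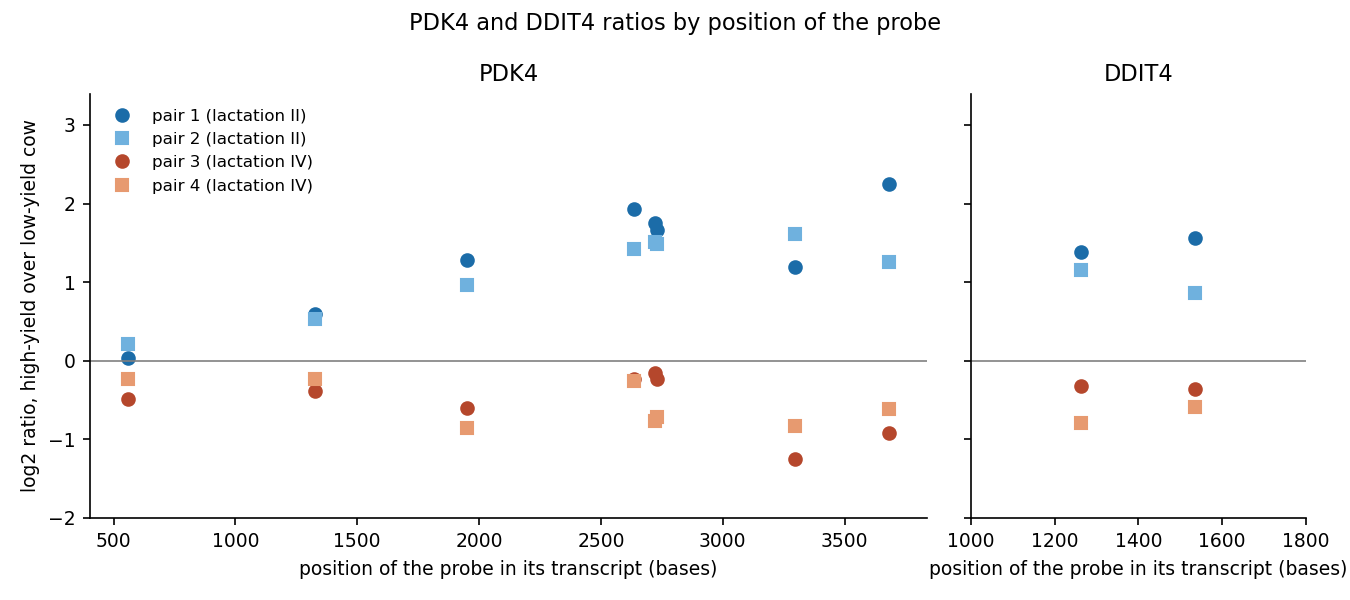
Log2 ratio of the high-yield over the low-yield cow (vertical axis) for each probe of PDK4 and DDIT4 against the position of the probe in its transcript in bases, with 1 point per cow pair. Both lactation II pairs lie above 0 and both lactation IV pairs below 0 for every probe, and the PDK4 points run from between -0.49 and 0.21 at base 561 to between -0.92 and 2.25 at base 3682, a widening that was largely gone with the scanner's processed signals.

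In all, 11 of the 25 probes were above 0 in both lactation II pairs and below 0 in both lactation IV pairs, where 7.83% of all probes tested were. They were the 8 of PDK4, the 2 of DDIT4 and 1 of SESN1, while 0 of the 25 had the reverse pattern (7.04% of all probes). For the lactation difference, 0 of the 25 probes, and 0 of all 29867 (0%), had a limma adjusted p under 0.05, and 10 of the 25 had an unadjusted p under 0.05, against 7.66% of all probes. Lower in lactation IV were 7 probes of PDK4 and both of DDIT4 (4.36% of all probes were), and higher (3.29% of all probes) was DEPP1 A_73_P268486, whose ratio was higher in lactation IV by 1.15 ± 0.26 (SE; limma unadjusted p = 0.01, adjusted p = 0.641). That DEPP1 difference was 0.09 on the Cy5 arrays of the high-yield cows and 2.20 on their Cy3 arrays. Probes of 1 gene share their RNA and are not separate observations. The median difference of the 25 probes was -0.17, and that of all probes 0.03.

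NUPR1 did not share this sign change: its ratio was above 0 in both lactations on all 3 probes, with lactation differences from 0.43 to 0.75 (limma adjusted p from 0.641 to 0.786). Across the 8 cow levels, taking the brightest probe of each gene, DDIT4 and PDK4 correlated at r = 0.906 and NUPR1 and DEPP1 at 0.857. SESN1 and PDK4 correlated at 0.731 and DEPP1 and KLF9 at 0.788, whereas NUPR1 and FOXO1 stood at -0.06 and DEPP1 and FOXO3 at -0.66. The KLF9 probe lay close to the background and ran only from 6.21 to 6.80 over the 8 cows. The SESN1 probe used here correlated with the other SESN1 probe at r = -0.11. These correlations are descriptions over 8 cows that share arrays in pairs and slides in fours.

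TXNIP, which is induced by glucose through the MondoA and ChREBP factors and by FOXO, had no common direction over the pairs. On its brightest probe, A_73_P030316 (chromosome 3, 23259271 to 23259330), the high-yield cows stood at 14.12, 15.57, 15.32 and 15.15 and the low-yield cows at 16.38, 14.22, 15.62 and 15.13. The highest and the lowest level both belong to pair 1, the highest to its low-yield cow. The ratios were -2.26, 1.35, -0.30 and 0.03, a mean of -0.30 ± 1.49 (SD, n = 4 pairs), and 0.36 without pair 1.

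The other 3 TXNIP probes gave the same order. Pair 1 lay at -1.45, -1.36 and -2.26 and pair 2 at 0.49, 0.69 and 1.51, while pairs 3 and 4 lay between -0.44 and 0.16. On each of the 4 probes the low-yield cow of pair 1 had the highest level of the 8 cows. That is also the cow with the lowest levels of the milk genes (11.85, above), and the part of that state in its TXNIP level was not tested. The 4 probes correlated with one another at r = 0.72 to 0.99.

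**Figure D3:**
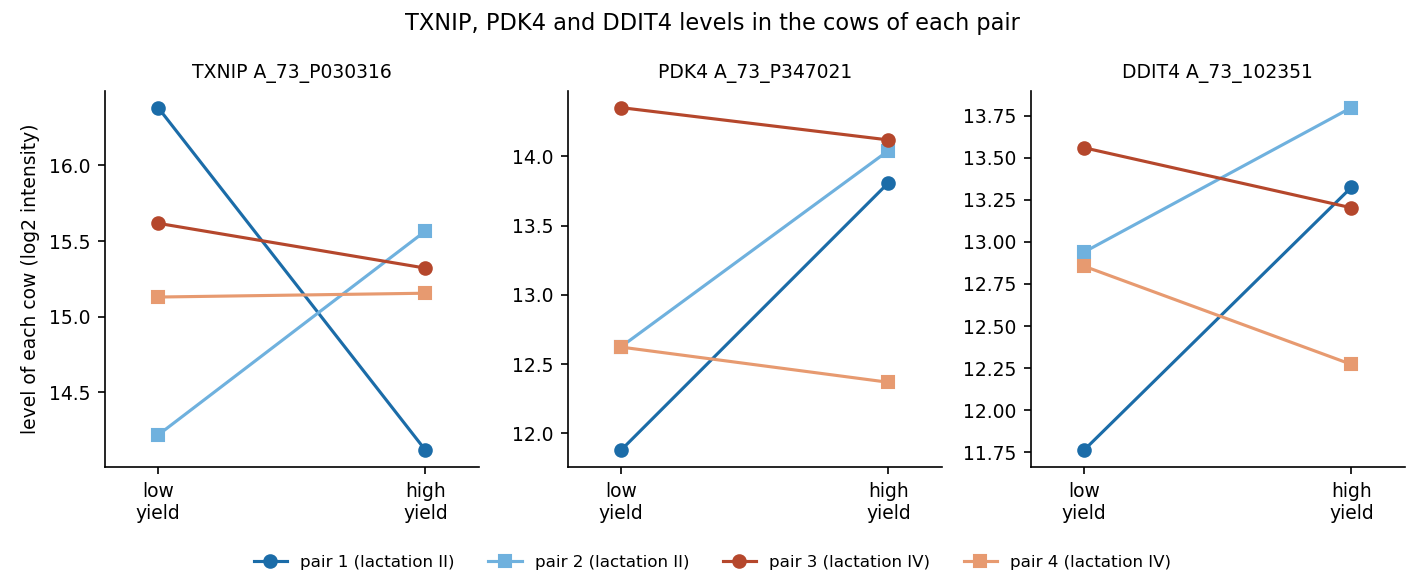
Level of each cow (log2 intensity, vertical axis) on 1 probe each of TXNIP, PDK4 and DDIT4, with a line joining the low-yield and the high-yield cow of each pair; the scale differs between panels. The PDK4 and DDIT4 lines rise in lactation II and fall in lactation IV, and the TXNIP line of pair 1 falls from 16.38 to 14.12.

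KLF9, a glucocorticoid- and FOXO-induced repressor of the Krüppel-like family, was close to the background. The probe that passed, A_73_P086281 (chromosome 8, 48821464 to 48821523), stood at 6.21, 6.53, 6.80 and 6.44 in the high-yield and at 6.23, 6.34, 6.61 and 6.28 in the low-yield cows. The groups overlapped, and the mean ratio was 0.13 ± 0.10 (SD, n = 4 pairs), below 0 in pair 1 alone, at -0.02. With the scanner's processed signals the mean was 0.34 and with median centring 0.33. The probe that did not pass had a mean ratio of 0.04 ± 0.15.

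**Figure D4:**
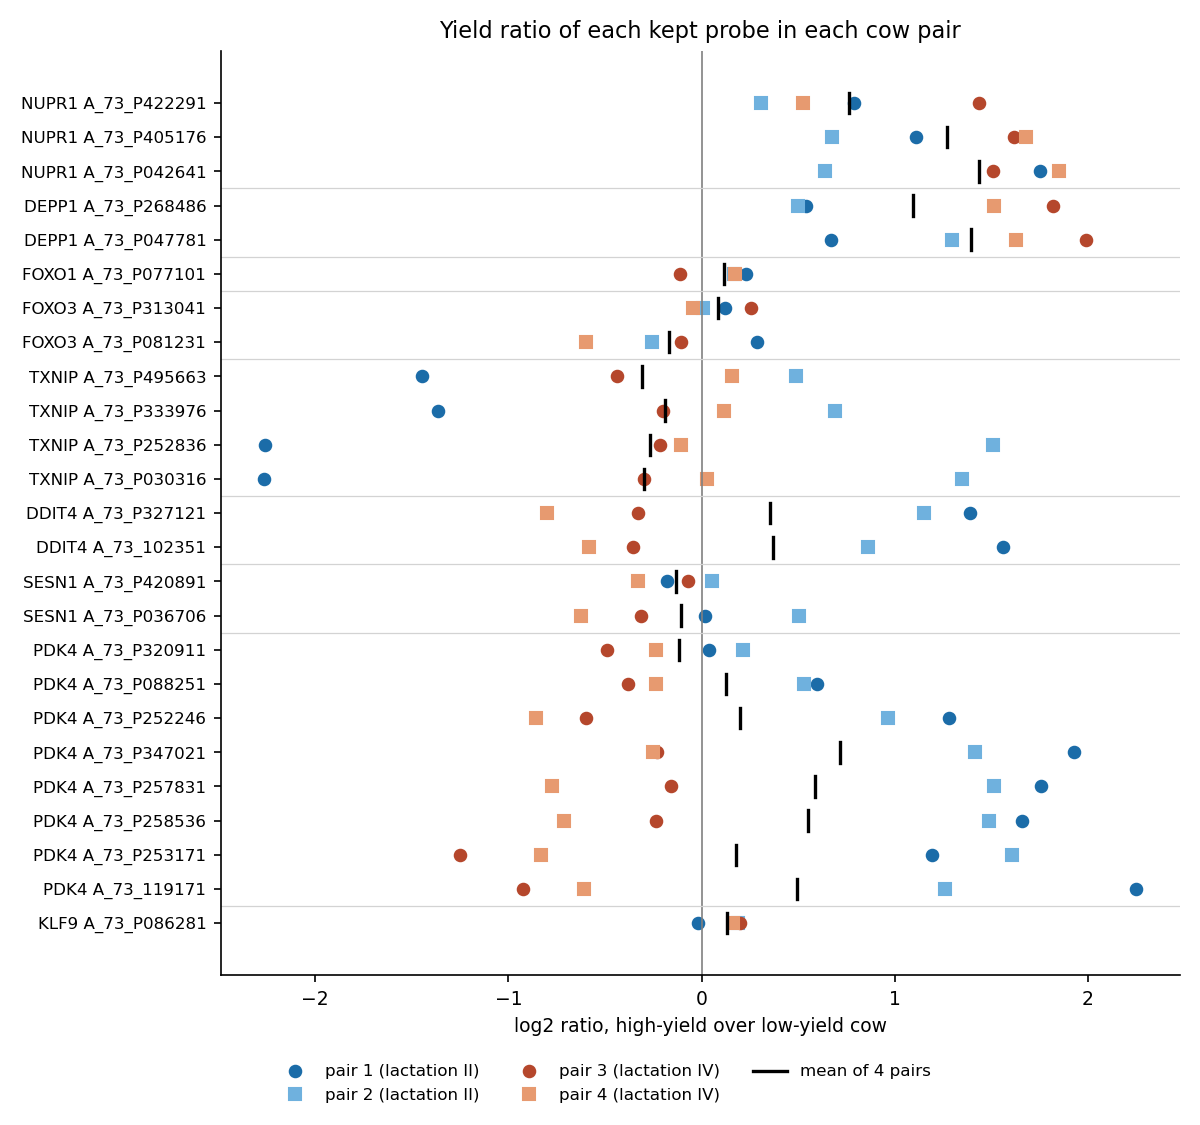
Log2 ratio of the high-yield over the low-yield cow (horizontal axis) in each of 4 pairs for the 25 probes that passed the filter, with a black bar at the mean of the 4 pairs. NUPR1 and DEPP1 lie above 0 in every pair, PDK4 and DDIT4 split by lactation, TXNIP spreads from -2.26 to 1.51, and FOXO1, FOXO3 and KLF9 stay between -0.60 and 0.28.

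The dye-swapped arrays show how far a single ratio can be trusted. Of the 100 combinations of probe and pair, 80 had the same sign on both arrays. NUPR1 and DEPP1 had it in 12 of 12 and 8 of 8, PDK4 in 30 of 32 and DDIT4 in 7 of 8, but TXNIP in 9 of 16, FOXO3 in 3 of 8 and FOXO1 in 1 of 4. NUPR1 was higher with the high-yield cow in Cy5 in 11 of 12 combinations, TXNIP in 16 of 16 and DEPP1 in 0 of 8. The sizes for these genes thus rest on the average over both dyes. NUPR1 A_73_P405176, for one, had a mean of 1.84 in Cy5 alone and 0.70 in Cy3 alone.

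**Figure D5:**
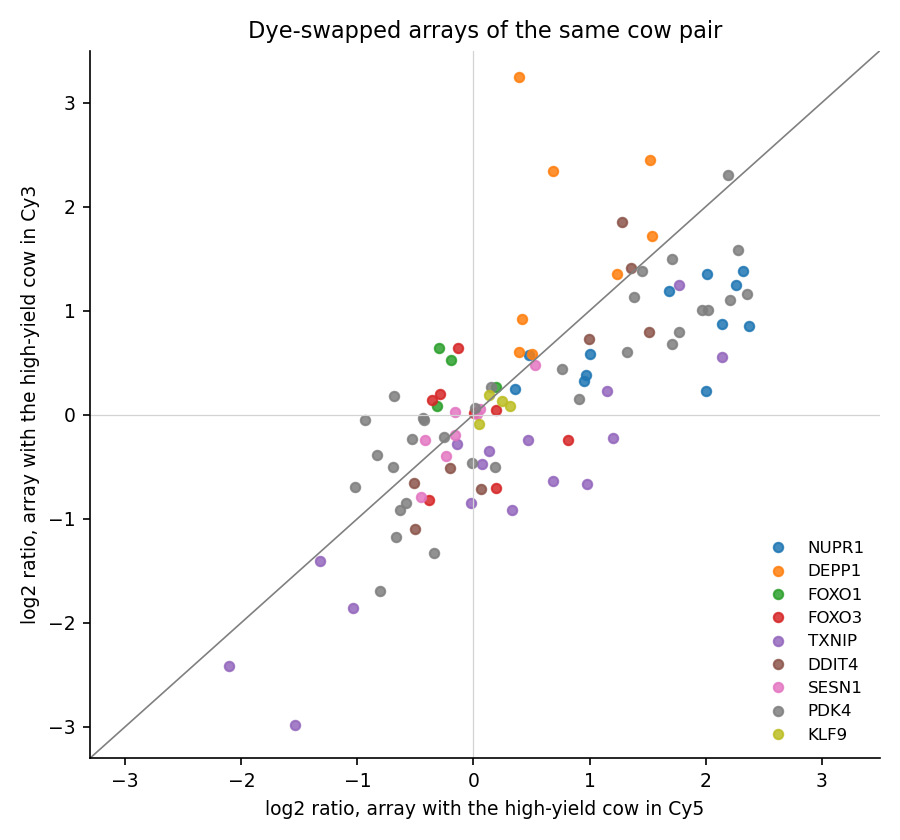
Log2 ratio on the array with the high-yield cow in Cy5 (horizontal axis) against that on the array with the high-yield cow in Cy3 (vertical axis), with 1 point per probe and pair and a line of equality. NUPR1 points lie mostly below the line and DEPP1 points above it, up to 0.39 against 3.25, while both stay above 0 on either array.

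The pathways around these genes were read from lists, with the brightest probe of each gene. For the counts of these lists, 8.21% of all probes were higher and 10.3% lower in 4 of 4 pairs, and 7.83% were above 0 in lactation II and below 0 in lactation IV. Of 21 other FOXO target genes that passed the filter, 1 was higher and 1 lower in 4 of 4 pairs, and the median ratio was 0.02. PINK1, the kinase that marks damaged mitochondria for removal, was the higher one (0.44 ± 0.45, SD, n = 4 pairs), and RBL2, a pocket protein that restrains the cell cycle, the lower one (-0.34 ± 0.26). Of 11 FOXO regulators and partners, 0 had 1 direction in 4 of 4 pairs, with a median of -0.04.

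Among 9 further genes that restrain mTORC1 or the translation it drives, 2 were higher and 1 lower in 4 of 4 pairs. DDIT4 and SESN1 are not among them, and the median ratio was 0.20. EIF4EBP1, the repressor of cap-dependent translation that mTORC1 inactivates, stood at 1.04 ± 0.59 and AKT1S1, the mTORC1 subunit PRAS40, at 0.68 ± 0.65. TSC1, part of the complex that holds mTORC1 off, stood at -0.27 ± 0.19. Of 8 TXNIP partners and relatives, TXN2, the mitochondrial thioredoxin, was higher in 4 of 4 pairs (0.38 ± 0.32). TXNRD1, which reduces thioredoxin (-0.27 ± 0.23), and the arrestin-like ARRDC3 (-0.07 ± 0.07) were lower. ARRDC3 passed the filter only through the low-yield cows, with 5 of 8 high-yield and 7 of 8 low-yield channels well above background. Its levels, from 6.17 to 6.42, were close to the background.

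Of 16 genes of pyruvate dehydrogenase control and fatty acid oxidation, PDK2, a sister kinase of PDK4, was higher in 4 of 4 pairs (0.54 ± 0.46). CPT2, which hands fatty acids to mitochondrial oxidation, was lower (-0.15 ± 0.05), although its other probe had a mean of opposite sign. PDK4's pattern over the lactations was found in 3 of these 16 genes, where 7.83% of all probes had it. Of 13 genes of the glucocorticoid response, 1 was lower in 4 of 4 pairs. It was NR3C1, the receptor itself and not one of the induced genes (-0.25 ± 0.16). Of 7 other KLF factors 0 had 1 direction. No gene of these lists passed for yield or for the lactation difference (limma adjusted p).

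Stress genes that act with NUPR1 included several with the sign pattern of DDIT4 and PDK4. Of 9 that passed the filter, 0 had 1 direction in 4 of 4 pairs, and 5 were above 0 in both lactation II pairs and below 0 in both lactation IV pairs, as 7.83% of all probes were. The 5, named after their values were seen, were ATF4, DDIT3, TRIB3, ASNS and CDKN1A. ATF4, the central factor of the amino acid response, had ratios of 1.48, 0.67, -1.49 and -0.77. TRIB3, an ATF4-induced pseudokinase, had ratios of 4.13, 1.94, -2.18 and -2.81. For TRIB3 1 of 3 probes, and for ASNS 1 of 2, had a mean over the 4 pairs of opposite sign to the brightest probe. That mean does not show whether those probes share the lactation pattern. The median lactation difference of the 9 genes was -1.60, and 0 passed (limma adjusted p = 0.641 for each of the 5).

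Markers of other cells were read beside NUPR1 and DEPP1. Of 6 red blood cell genes 5 passed the filter, and 4 of these were higher in 4 of 4 pairs, where 8.21% of all probes were. HBA (2.15 ± 0.98, SD, n = 4 pairs) and AHSP (0.51 ± 0.47) were among them and were well above background in all channels. HBM (1.01 ± 0.71) and HBB (0.93 ± 1.12) were the others, but they passed the filter only through the high-yield cows. HBM was well above background in 8 of 8 high-yield and 3 of 8 low-yield channels, and HBB in 6 and 3, so their ratios are set against low-yield signals that are mostly not well above background. SLC4A1, the anion exchanger of the red cell membrane, stood at -0.05 ± 0.19, and ALAS2, the first enzyme of haem synthesis in red cells, was well above background in only 1 of 8 channels of the high-yield and 0 of the low-yield cows. HBA stood between 8.90 and 12.46 in the high-yield and between 6.82 and 8.91 in the low-yield cows. AHSP stood between 7.15 and 8.57 in the high-yield and between 6.93 and 7.36 in the low-yield cows. The part of blood in the ratios of NUPR1 and DEPP1 was not tested.

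The 7 milk genes had a median ratio of 7.10 in pair 1 and of -1.16, -0.86 and -1.04 in pairs 2 to 4, so outside pair 1 this median was below 0 where NUPR1 and DEPP1 were above 0. In the other lists, 1 of 7 luminal epithelial, 0 of 8 myoepithelial, 0 of 5 adipocyte, 0 of 6 fibroblast, 1 of 5 endothelial, 1 of 6 skeletal muscle, 0 of 5 macrophage and 1 of 5 neutrophil genes were higher in 4 of 4 pairs, where 8.21% of all probes were. These were KRT19, a keratin of luminal cells (1.28 ± 0.79), CLDN5, a tight junction protein of vessels (0.54 ± 0.47), TNNT3, a troponin of fast muscle (0.12 ± 0.07), and S100A12, a calcium-binding protein of neutrophils (0.44 ± 0.36). The median ratios of their lists were 0.01 (luminal), 0.30 (endothelial), 0.17 (skeletal muscle) and 0.12 (neutrophil). A mean ratio below 0 was found in 3 luminal, 1 endothelial, 1 skeletal muscle and 0 neutrophil genes. Of 6 genes of T and NK cells 1 was lower in 4 of 4 pairs, where 10.3% of all probes were. It was CD8B, a chain of the CD8 coreceptor (-0.27 ± 0.36). In whole tissue, fewer cells of a type and less RNA per cell cannot be told apart.

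The genes whose brightest probe followed NUPR1 most closely over the 8 cows, out of 11948 named genes, were RFTN2 (r = 0.972), PDZK1IP1 (0.957), TMBIM1 (0.948), CSNK2A2 (0.946) and LTC4S (0.942). Those that followed DEPP1 most closely were LMO1 (0.962), TSKS (0.962), DLX5 (0.954), RIC8B (0.948) and AMPH (0.947). Of the former, RFTN2, a lipid raft protein, had a ratio of 1.02 ± 0.50 (SD, n = 4 pairs) and LTC4S, the leukotriene C4 synthase, one of 0.56 ± 0.14. They are the closest of 11948 by selection, over 8 cows that share arrays in pairs.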

How the data were processed

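Total RNA (1000 ng) of each gland sample was labelled with Cy3 and Cy5, per the labels' protocols. Feature Extraction 10.10.1.1 read 8 arrays of design 023647, per the file headers, and the authors deposited its intensity values and its log10 ratio of red over green for each spot. The authors' deposited value table holds log2 ratios; set against the scanner ratios, each column ran as high over low yield, with medians from -0.0352 to 0.0232, and 2 columns were strongly shrunken (slopes 0.0899 and 0.101 against 0.646 to 0.844 in the others), so its scale is unknown.

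Here, with limma 3.58.1 (R 4.3.3), intensities were background-corrected by normexp with the noise set from 153 negative control spots (offset 50), outlier-flagged spots (0 to 109 per array) were left out, and ratios were loess-normalized within arrays with controls at weight 0. The 2 dye-swapped arrays of a pair were averaged, so n = 4 pairs. Cow levels were rebuilt from the ratio and the between-array normalized mean intensity. The lmFit and eBayes test was run over 29867 probes with Benjamini-Hochberg adjustment, at 0.05, and was tested on simulated data. The replicate number marks the pair of cows that share 2 arrays. The pair values thus already hold the pairing. No p-value is given for the yield ratio of the 9 genes, which chose them.

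The genes and lists were chosen with earlier results of these data known. Every probe of the 9 genes is described; from each pathway list the text names genes with 1 sign in 4 of 4 pairs (at most 4 by size), and the 5 genes most correlated with NUPR1 and with DEPP1. The marker genes and 5 stress genes were named after their values were seen. Alternatives were another background fit, the scanner's processed signals, median centring, scaling of arrays, 2 filters, each dye orientation alone, the authors' values, each pair left out, a slide term, cows without pairing and, added after the data were seen, leaving out the 2 arrays with shrunken columns. Promoter and protein sequences were not used here. Each pair holds separate cows, per the labels' animal numbers, and p-values measure the spread between these 4 pairs. Figures were drawn with matplotlib 3.10.9.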

Additional observations from a re-analysis of the deposited data

Results flagged for a closer look

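The yield ratio of 3 genes, each taken on its brightest probe, was above 0 in both lactation II pairs and below 0 in both lactation IV pairs, and in each the test of the difference itself did not pass. The lactation difference was -1.92 for PDK4 on A_73_P347021 (limma adjusted p = 0.641), -1.68 for DDIT4 on A_73_102351 (adjusted p = 0.641) and -0.73 for SESN1 on A_73_P036706 (adjusted p = 0.651). No value was flagged as outlying in any of the 75 sets of 4 values checked. These sets were the pair ratios and the levels of the high-yield and low-yield cows for each of the 25 probes. The rule flags a value only where its gap to the nearest value makes up most of the range. It can miss values that stand apart, such as the high-yield cow of pair 4 on PDK4 A_73_P347021 (12.37, against 13.81 to 14.12 in the other high-yield cows).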

How the results depend on the processing

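For yield, 0 of all probes passed in any alternative, with between 919 and 5098 at an unadjusted p under 0.05; cows compared with no replicate block for the pairing gave 0 calls and 1353 unadjusted. The lactation difference had 0 calls except when a pair was left out, where the count ran from 0 to 184, the 184 without pair 2. Leaving out a pair leaves 1 lactation with a single pair, so the spread then comes from the other lactation and the lone pair is assumed to vary alike. None of the 184 was a probe of the 9 genes, whose lowest adjusted p in that same setting was 0.0693 (PDK4 A_73_119171). The cause was not tested. NUPR1 and DEPP1 kept a yield ratio above 0 in 16 of 16 alternatives on each probe, between 0.47 and 1.92 for NUPR1 and between 0.49 and 1.69 for DEPP1; FOXO1, FOXO3, TXNIP, SESN1, DDIT4 and PDK4 each had at least 1 probe whose yield sign turned. The scanner's processed signals, with no offset, moved the yield ratios of FOXO3, SESN1 A_73_P420891 and KLF9 and the lactation differences of the PDK4 probes at bases 561 and 1328, as given above. With the same signals the lactation difference of KLF9 A_73_P086281 went from 0.095 to 0.77.

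The lactation difference of every PDK4, DDIT4, SESN1, DEPP1 and FOXO1 probe kept its sign in each alternative. It reversed for FOXO3 A_73_P313041 with median centring (-0.15) and with Cy5 alone (-0.31), for FOXO3 A_73_P081231 with Cy3 alone (0.13), for KLF9 with median centring (-0.10), for TXNIP A_73_P252836 with arrays scaled to the same spread (-0.096), and for TXNIP A_73_P030316 with the other background fit (-0.028). With each pair left out it ran from -0.63 to 1.31, -0.73 to 1.32, -1.67 to 2.10 and -1.48 to 2.13 on TXNIP A_73_P495663, A_73_P333976, A_73_P252836 and A_73_P030316. It ran from -0.0093 to 0.20 for KLF9, from -0.11 to 0.19 for FOXO3 A_73_P313041, from -0.075 to 1.04 for NUPR1 A_73_P042641 and from -0.024 to 0.89 for NUPR1 A_73_P422291. Dim probes (FOXO3 A_73_P313041, SESN1 A_73_P420891, PDK4 A_73_P320911 and KLF9) lie near background, which limits the differences they can show, and 4 pairs limit all the rest.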
